A study of Mus musculus with 3 samples.

Results

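The genes encoding Krüppel-like factors Klf2, Klf3, Klf4, Klf6, Klf7, Klf9, Klf10 and Klf13 were examined in a ChIP-Seq data set of Pol_II phosphorylated at Ser5 of its C-terminal repeats. These 8 genes were taken by name from the 22350 protein-coding genes of GENCODE M1 on mouse chromosomes 1 to 19 and X (mm9), and their tags and peaks were counted over the gene, within 1 kb of the start site and, for Klf6 in particular, up to 100 kb upstream. The cells were bone marrow-derived macrophages of female Fvb mice (Fvb/Hsd in the methods of the study), grown from bone marrow in medium conditioned by L929 cells and used on the seventh day of differentiation. One Ser5 library came from untreated cells and another from cells given 10 ng/ml LPS (bacterial lipopolysaccharide, which activates macrophages through Tlr4) for 2 h, and the third library was input DNA of untreated cells, that is chromatin sequenced without immunoprecipitation. The labels name no genetic modification and do not say how many mice contributed cells.

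Krüppel-like factors bind GC-rich and CACCC-type DNA elements through C-terminal zinc fingers, and different members of the family activate or repress transcription. In macrophages and their precursors, Klf4 takes part in monocyte differentiation, Klf2 restrains inflammatory gene expression and Klf6 has been linked to inflammatory activation. Ser5 phosphorylation is placed on Pol_II around initiation, so that Ser5 signal is usually strongest near start sites and lower over the rest of a transcribed gene.

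The Ser5 library of untreated cells held 7616771 tags on the chromosomes used, the Ser5 library after LPS 6249819 and the input 7533308, and the deposited lists held 53524 and 49438 Ser5 peaks for untreated and LPS-treated cells. Tag length was 45 bases in the untreated Ser5 library, 30 in the LPS library and 36 in the input, and the methods of the study give the lengths of both Ser5 libraries the other way round. The labels were therefore checked on LPS-inducible genes: all 7 of Ccl5, Il6, Tnf, Il1b, Nfkbia, Ptgs2 and Cxcl2 had at least 2 times more Ser5 at the promoter in the library labelled LPS, by factors of 4.73 to 186. Promoters of the 6 macrophage markers examined carried a Ser5 peak in 6 cases in untreated cells and in 5 after LPS, against 0 of 3 T cell, 0 of 3 B cell, 0 of 3 fibroblast and 0 of 3 erythroid markers in either library. Of the endothelial markers 1 of 3, Kdr, had one in both libraries, and of the neutrophil and precursor markers 1 of 4, S100a8, had one in untreated cells. Over the gene, LPS-treated cells had at least 2 times less Ser5 at 5 of the 6 macrophage markers and more at Emr1. Their summed gene signal was 1604 TPM (tags scaled to the total of the library, not transcripts) in untreated cells and 1337 after LPS, against 215 in the input, and the part of this in the Klf values was not tested. There were no replicate libraries, so the differences have no replicate check and no test was run. All intervals are 95% intervals of counting error only, and tags are PCR reads that are not independent molecules. Genes were called higher or lower after LPS when their scaled tags differed at least 2 times and the Ser5 libraries together gave at least 10 tags. In bulk chromatin, fewer cells with Pol_II on a gene and less Pol_II per cell cannot be told apart.

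The sequences just upstream of the start sites show the setting in which the Ser5 signal was measured. For the genes whose Ser5 differed most between conditions, and for Klf2, the 250 bases before the start of the longest coding transcript are given 5′ to 3′ from the mm9 assembly. Capitals mark GC boxes (GGGCGG) and CACCC elements (CACCC), on either strand and sometimes sharing bases, and also a MEF2 element in Klf2 and an NF-kB element in Klf10.
Klf6 (chr13:5860485-5860734, plus strand): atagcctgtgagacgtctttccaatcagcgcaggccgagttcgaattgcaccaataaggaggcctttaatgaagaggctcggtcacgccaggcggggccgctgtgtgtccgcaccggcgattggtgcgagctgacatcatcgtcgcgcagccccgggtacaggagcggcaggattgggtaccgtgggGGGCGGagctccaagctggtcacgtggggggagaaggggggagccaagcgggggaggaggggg
Klf3 (chr5:65194378-65194627, plus strand): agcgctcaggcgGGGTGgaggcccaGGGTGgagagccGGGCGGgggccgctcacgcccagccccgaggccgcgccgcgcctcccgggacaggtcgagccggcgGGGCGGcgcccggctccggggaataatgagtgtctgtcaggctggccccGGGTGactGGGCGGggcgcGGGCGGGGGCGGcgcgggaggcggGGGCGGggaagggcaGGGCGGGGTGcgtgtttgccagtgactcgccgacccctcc
Klf7 (chr1:64168066-64168315, minus strand): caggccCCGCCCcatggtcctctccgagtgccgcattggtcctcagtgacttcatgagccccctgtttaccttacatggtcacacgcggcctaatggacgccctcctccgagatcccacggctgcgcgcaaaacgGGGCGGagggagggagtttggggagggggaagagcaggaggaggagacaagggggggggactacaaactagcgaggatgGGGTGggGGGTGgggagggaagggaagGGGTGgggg
Klf10 (chr15:38230462-38230711, minus strand): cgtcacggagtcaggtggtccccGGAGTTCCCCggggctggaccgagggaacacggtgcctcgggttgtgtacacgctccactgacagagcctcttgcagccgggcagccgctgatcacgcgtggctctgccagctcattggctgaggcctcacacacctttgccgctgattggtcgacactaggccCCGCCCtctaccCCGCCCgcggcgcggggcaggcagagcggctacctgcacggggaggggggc
Klf2 (chr8:74842682-74842931, plus strand): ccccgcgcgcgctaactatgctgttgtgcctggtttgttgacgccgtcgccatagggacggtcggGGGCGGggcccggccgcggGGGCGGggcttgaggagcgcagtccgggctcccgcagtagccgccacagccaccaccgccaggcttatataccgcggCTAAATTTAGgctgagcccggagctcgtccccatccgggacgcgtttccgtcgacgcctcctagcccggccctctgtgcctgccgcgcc

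The Klf7 sequence lies inside the annotated gene, downstream of the outermost start site on which its promoter counts were centred. The window of Klf3 was the richest in these elements, with 7 GC boxes, 4 CACCC matches and a GC content of 80%, above 98.4% of the 22345 promoters searched, whose median was 54.8%. All 8 windows were above that median, the lowest being Klf9 at 59.6%. GC boxes were present in 7 of the 8 Klf windows and in 41.0% of all promoters, Klf9 being the exception. The shares of all promoters given here are not matched for GC content. CACCC elements were found in 4 of the 8 windows against 52.6% of all promoters, and CCAAT elements (CCAAT) in 5 of 8 against 34.8%. The MEF2 element of Klf2, which starts 89 bases before the start site, was the single one in the family and occurs in 0.492% of all promoters. No Klf window held the TATA letters TATAAA, found in 12.2% of promoters. The NF-kB consensus matched once, in Klf10, 227 bases before the start site, and in 4.26% of all promoters. The AP-1 letters TGANTCA were found in Klf9 alone and in 5.87% of promoters. These are matches of letters only.

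In untreated macrophages all 8 genes had a Ser5 peak within 1 kb of the start site, and so they did after LPS, while 48% and 45.9% of all coding promoters had one. Of the 9 other Klf genes, 3 had such a peak in untreated cells and 4 after LPS, and of the 9 related Sp genes 4 and 3. The 8 members were chosen with earlier results of these data known, so their share does not describe the whole family. Densities are given as TPM per kb of sequence. At the promoter (start site ±1 kb), the order in untreated cells was Klf6, Klf7, Klf2, Klf10, Klf3, Klf13, Klf4 and Klf9. Klf6 stood at 68.2 TPM per kb, Klf7 at 57.0 and Klf2 at 51.3. The separate intervals of Klf7 and Klf2 overlapped, as did those of Klf3 (29.3) and Klf13 (26.8) and of Klf13 and Klf4 (22.4). Such overlap does not decide whether the order within a pair is beyond counting error, and the pairs were not compared directly. Klf9, at 5.64, was the lowest. The first 7 genes in this order each exceeded at least 93.5% of coding promoters, whereas Klf9 exceeded 61.6%. After LPS the order was Klf6, Klf7, Klf3, Klf2, Klf13, Klf4, Klf10 and Klf9, so that Klf3 moved up by 2 places and Klf10 down by 3. The promoter signal of untreated cells was between 15.6 and 38.1 times the input density in the other 7 genes and 6.54 times in Klf9, where 71.9% of all promoters with enough tags were at least 2 times above input. After LPS the 8 genes lay between 3.62 times (Klf9) and 75.5 times (Klf6), and 70.4% of all promoters passed 2 times. These ratios depend on the scaling, since 50.2% of the untreated and 46.7% of the LPS tags lay outside the deposited Ser5 peaks against 95.5% of the input tags: scaled to the tags outside peaks, every ratio of Ser5 to input is 1.90 times higher in untreated cells and 2.05 times higher after LPS.

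**Figure D1:**
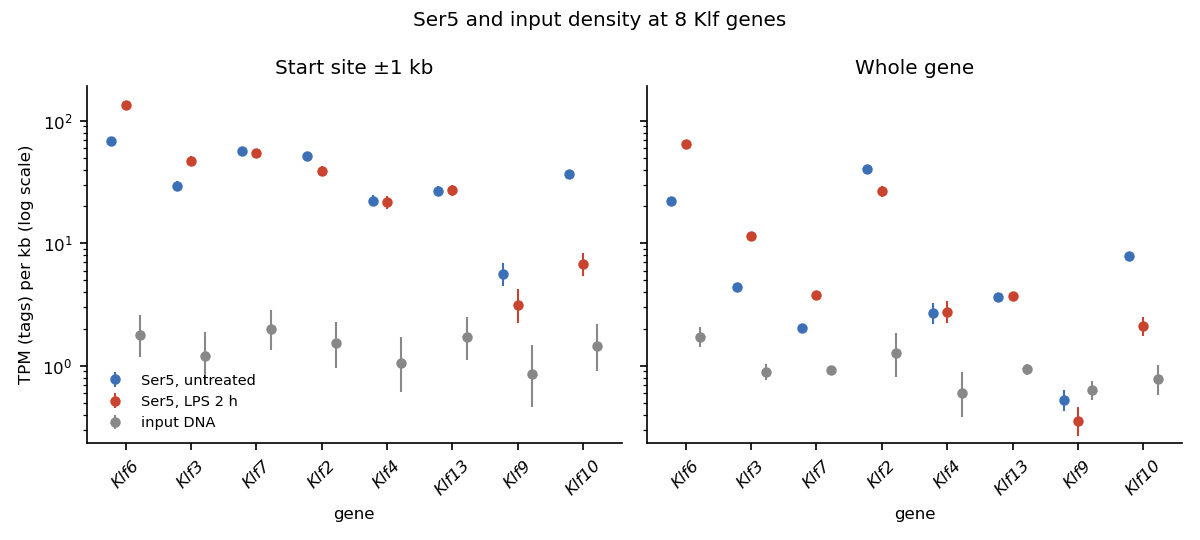
Density of Ser5 and input tags at the 8 Klf genes, within 1 kb of the start site (left) and over the whole gene (right), in TPM per kb on a log axis; points are single libraries and bars 95% Poisson intervals of counting error. At the promoter Klf6 goes from 68.2 in untreated cells to 135 after LPS and Klf10 from 36.7 to 6.80, while Klf4 and Klf13 hardly differ.

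Single members differed in opposite directions after LPS. At the promoter 0 of 8 genes were higher and 1, Klf10, was lower by the rule of size, against 5.58% and 14.1% of the 12535 coding promoters tested. Over the whole gene 2 of 8, Klf3 and Klf6, were higher and again Klf10 was lower, against 5.83% and 11.3% of 17386 genes. Among 8 genes, 0 higher at the promoter and 1 lower in each place are near these shares and are no trait of the family. The median ratio of LPS to untreated Ser5 over all coding promoters was 0.831, or -0.27 on the log2 scale, and that over whole genes 0.874, so a gene at a ratio of 1 lay above the median gene. The median over the 8 Klf genes was 0.960 at the promoter and 1.03 over the gene.

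**Figure D2:**
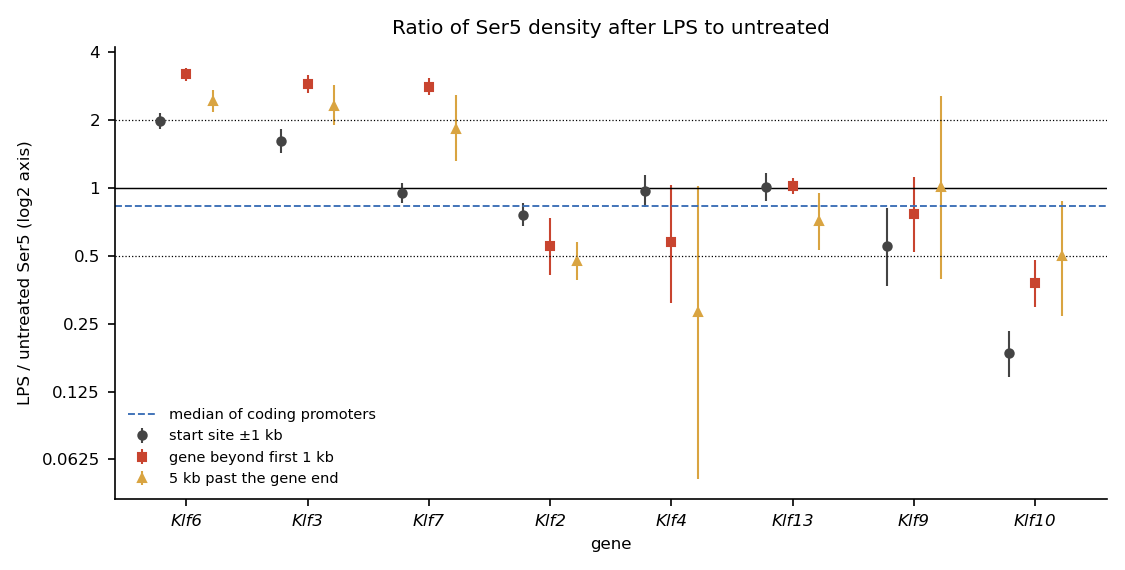
Ratio of LPS to untreated Ser5 on a log2 axis at the promoter, over the gene beyond its first 1 kb and over the 5 kb past its end, with 95% intervals of counting error; dotted lines mark 2 times higher and lower, the dashed line the median coding promoter. Klf6, Klf3 and Klf7 lie at 3.19, 2.89 and 2.82 beyond the first 1 kb, and Klf10 lies below 1 in all 3 places.

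Klf6 (chr13:5860735-5869639), a widely expressed and rapidly induced member, had the highest promoter density of the family in each Ser5 library. Its promoter held 1040 Ser5 tags in untreated cells, 1692 after LPS and 27 in the input. This gave a ratio of 1.98 (1.83 to 2.14), just short of the rule of size. Over the gene it had 1509, 3571 and 116 tags, a ratio of 2.88 (2.72 to 3.07) and higher than in 97.3% of coding genes. The difference was larger over the gene than at its start: beyond the first 1 kb, 1081 untreated tags compared with 2831, a ratio of 3.19 (2.98 to 3.43). It was also present past the annotated end, where 5 kb held 495 and 988 tags, a ratio of 2.43 (2.18 to 2.71). In all 10 equal parts of the gene the ratio was at least 2, between 2.05 and 3.96. Deposited peaks already covered 95.4% of the gene in untreated cells and covered 98.9% after LPS, when 1 peak of 8895 bp spanned the promoter and most of the gene.

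Klf3 (chr5:65194628-65221368) encodes a factor known mainly as a repressor that recruits CtBP proteins. Its promoter held 446 tags in untreated cells, 592 after LPS and 18 in the input, a ratio of 1.62 (1.43 to 1.83). The window was not uniform. Upstream of the start site the tags were 210 and 212, a ratio of 1.23, and downstream they were 236 and 380, a ratio of 1.96 (1.66 to 2.32). Over the gene, 891 tags in untreated cells compared with 1930 after LPS and 179 in the input, a ratio of 2.64 (2.44 to 2.86). The ratio was at least 2 in 10 of 10 equal parts and reached 3.79, and the 5 kb past the end had 148 and 282 tags. Peaks covered 29.3% of Klf3 in untreated cells and 82.6% after LPS, their number going from 16 to 23.

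Klf7 (chr1:64076021-64168856), best known for roles in neuronal and adipose tissue, differed along the gene more than at its start. Its promoter had 869 tags in untreated cells, 678 after LPS and 30 in the input, a ratio of 0.951 (0.859 to 1.05). Beyond the first 1 kb, however, it had 714 tags in untreated cells, 1652 after LPS and 639 in the input, a ratio of 2.82 (2.58 to 3.08), where 6.63% of the 16655 genes tested were at least 2 times higher. In untreated cells the mean over this part of Klf7 was 1.11 times input (0.992 to 1.23), or 2.10 times (1.89 to 2.34) when scaled to tags outside peaks, and after LPS it was 3.12 times (2.84 to 3.42), or 6.38 times (5.82 to 7.00). Untreated peaks were nonetheless called in it, one of which, 2252 bp from the start site, had 20 tags against 3 in the input. The share of Klf7 tags lying beyond the first 1 kb accordingly went from 50.0% (exact binomial interval 47.3 to 52.6) to 75.3% (73.5 to 77.1). The quotient of the ratio beyond the first 1 kb to the ratio at the promoter was 2.97 for Klf7, higher than in 96.9% of 11839 genes with a median of 1.05, while it was 1.79 for Klf3 and 1.61 for Klf6.

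Within Klf7 the ratio was 1.25 in the first of 10 equal parts, 1.91 in the second and between 2.14 and 3.96 in the remaining 8. The number of peaks in the gene went from 5 to 27, covering 2.98% and 14.4% of its length. Non-coding genes Gm17427 and Gm13748 are annotated on the opposite strand inside Klf7, and ChIP tags cannot be assigned to a strand of transcription. Outside them, the 76242 bp beyond the first 1 kb had 613 untreated and 1365 LPS tags, a ratio of 2.71 (2.47 to 2.99).

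**Figure D3:**
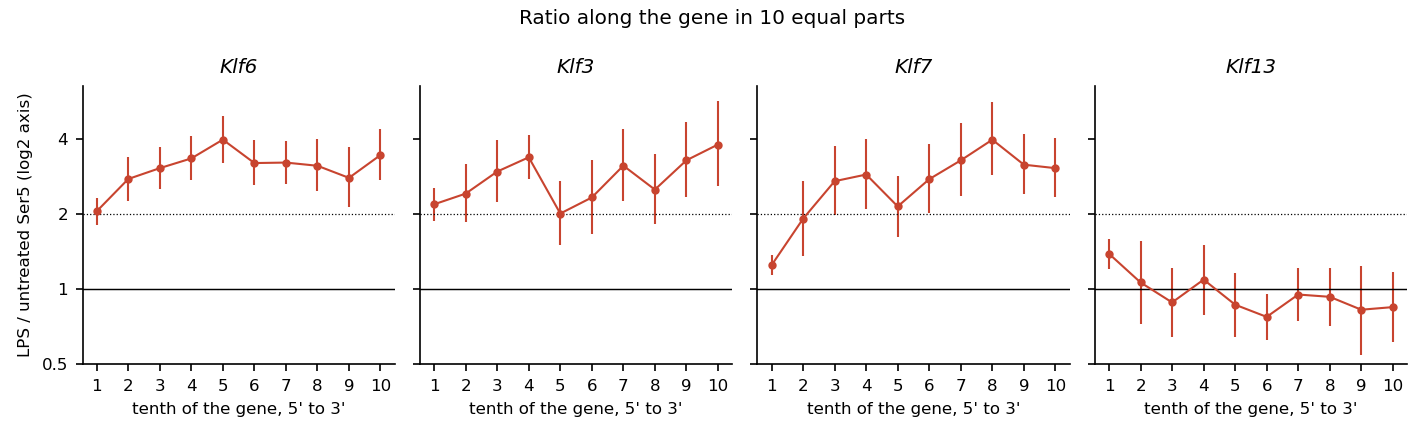
Ratio of LPS to untreated Ser5 in 10 equal parts of Klf6, Klf3, Klf7 and Klf13 from the 5′ to the 3′ end, on a log2 axis with 95% intervals of counting error; the dotted line marks 2 times higher. Klf6 and Klf3 are at or above 2 throughout, Klf7 starts at 1.25 and is above 2 from the third part on, and Klf13 stays between 0.773 and 1.38.

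Klf13 (chr7:71031237-71083801), a factor described as an activator of Ccl5 in T cells, had ratios close to 1 at the promoter and over the gene. The promoter of Klf13 had 409 tags in untreated cells, 339 after LPS and 26 in the input, a ratio of 1.01 (0.872 to 1.17), and the gene 1448, 1222 and 371 tags, a ratio of 1.03 (0.952 to 1.11). Of the gene tags of this long gene, 89.3% lay beyond the first 1 kb in untreated cells and 88.5% after LPS, with 96.8% in the input. The first of 10 equal parts was at 1.38 (1.21 to 1.59) and the sixth at 0.773 (0.625 to 0.953). Peaks in the gene went from 20 to 12.

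Klf4 (chr4:55540013-55545347), the regulator of monocyte differentiation, had 341 promoter tags in untreated cells, 271 after LPS and 16 in the input, a ratio of 0.969 (0.823 to 1.14). Its signal lay mostly before the start site, where 270 untreated and 197 LPS tags were counted, against 71 and 74 after it. Beyond the first 1 kb, Klf4 had 38 and 18 tags, with 17 in the input, and the interval of the ratio, 0.310 to 1.04, included 1. After LPS this stretch was at 1.28 times input (0.621 to 2.64), and at 2.61 times (1.27 to 5.39) when scaled to tags outside peaks, so that whether it exceeded input depended on the scaling. In Klf4, 18.3% of the 30-base sequences of the gene occur more than once in the assembly, the largest share in the family, and 12.3% of its 45-base sequences do, so tags of that length from these places were not kept.

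**Figure D4:**
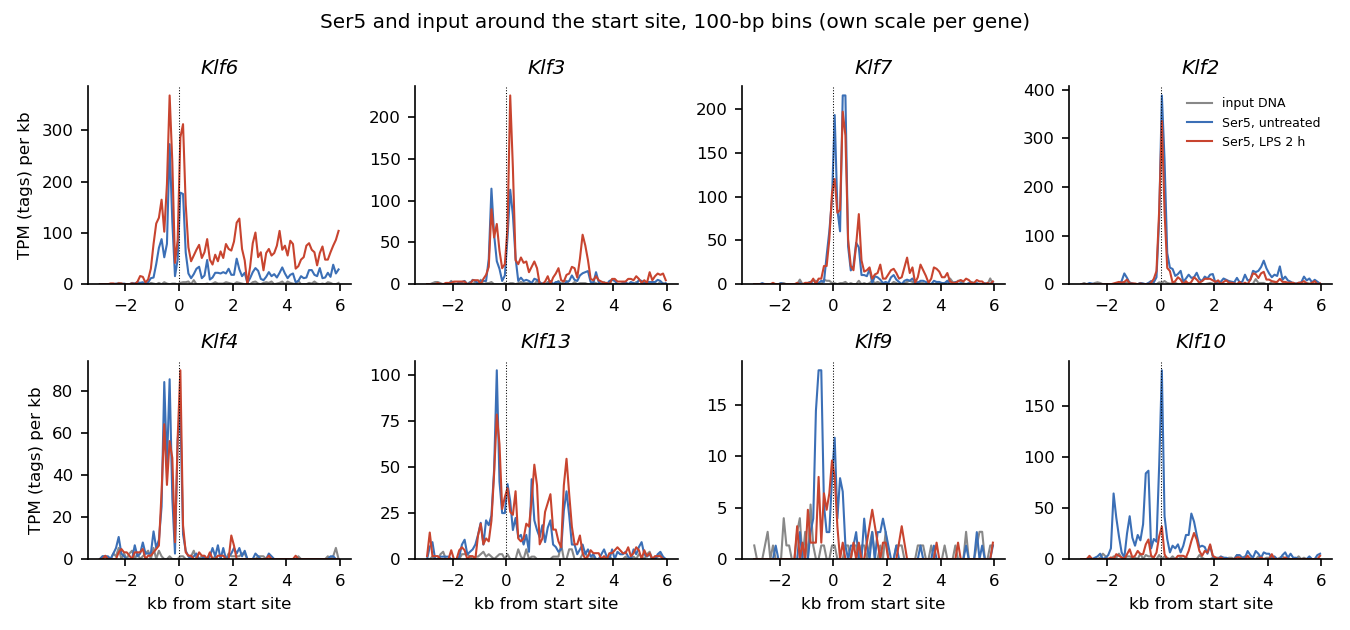
Ser5 and input density in 100-bp bins from 3 kb before to 6 kb after the start site of the 8 Klf genes, in TPM per kb with a separate scale for each gene. Much of the signal near the start site lay upstream of it in Klf3, Klf4, Klf6, Klf9, Klf10 and Klf13. That of Klf2 lay in a sharp peak at the start. In Klf6 the LPS line runs above the untreated line over nearly the whole stretch after the start site.

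Klf2 (chr8:74842932-74845555) had the highest density over the gene in untreated cells, 40.3 TPM per kb, and 26.5 after LPS. Its promoter held 782 tags in untreated cells, 489 after LPS and 23 in the input, a ratio of 0.762 (0.679 to 0.854), which is close to the median promoter. The lower signal was in the downstream part of the window, with 654 and 366 tags, a ratio of 0.682 (0.598 to 0.776), whereas upstream of the start 128 and 123 tags gave 1.17 (0.907 to 1.51). Over the gene the ratio was 0.659 (0.585 to 0.741), beyond the first 1 kb 0.553 (0.410 to 0.740), from 152 and 69 tags, and over the 5 kb past the end 0.476 (0.390 to 0.578), from 369 and 144 tags. The peaks of Klf2 covered 99.7% of the gene in untreated cells and 76.7% after LPS.

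Klf10 (chr15:38221219-38230464), also known as TGF-beta inducible early gene 1, showed the lowest ratio of the family. Its promoter held 559 tags in untreated cells, 85 after LPS and 22 in the input, a ratio of 0.185 (0.146 to 0.233), and 1.56% of coding promoters had a lower ratio. From exceeding 98.6% of promoters in untreated cells, its promoter density went to exceeding 68.6% after LPS, at 4.66 times input. Over the gene Klf10 had 552, 122 and 54 tags, a ratio of 0.269 (0.220 to 0.328), and 8 of 10 equal parts were at least 2 times lower. The part beyond the first 1 kb had 297 and 92 tags, a ratio of 0.378 (0.296 to 0.479), where 12.2% of all genes were at least 2 times lower. Here too the promoter and the rest of the gene differed in size, with a quotient of 2.04. Peaks covered 36.4% of the gene in untreated cells and 17.6% after LPS.

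Klf9 (chr19:23215716-23241401), a target of glucocorticoid and thyroid hormone receptors, was the weakest member. Its promoter had 86 tags in untreated cells, 39 after LPS and 13 in the input, a ratio of 0.553 (0.368 to 0.816). Over the gene it had 103, 57 and 123 tags, that is 0.828 times (0.631 to 1.09) the input density without LPS and 0.559 times (0.401 to 0.771) with it. Scaled to tags outside peaks these became 1.57 times (1.2 to 2.06) and 1.14 times (0.820 to 1.58), so that the untreated gene exceeded input with one scaling and not with the other.

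Upstream of Klf6 lies a stretch of 100 kb with no annotated gene, which 5 deposited Ser5 peaks of untreated cells and 20 of LPS-treated cells overlapped. Of these, 4 and 19 lay wholly beyond the first 1 kb, the remaining one in each library being the peak over the Klf6 start site. Its 100 kb had 1018 tags in untreated cells and 2195 under LPS, a ratio of 2.63 (2.44 to 2.83), where 3.08% of genes were at least 2 times higher. Leaving out the first 1 kb, which belongs to the promoter signal, it held 407 tags in untreated cells, 1243 after LPS and 738 in the input. This was a ratio of 3.72 (3.33 to 4.17), the 173rd highest of 21654 coding genes with enough tags in the same window, of which 3.2% were at least 2 times higher. The density was at 0.545 times input in untreated cells (0.482 to 0.616) and at 2.03 times after LPS (1.85 to 2.23), and scaled to tags outside peaks at 1.04 times (0.917 to 1.17) and 4.15 times (3.79 to 4.56). It was the largest ratio for this window in the family, the other 7 genes having between 0.354 and 1.25.

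The peaks of both libraries merged into 19 regions between 1410 and 87153 bp upstream, of which 17 held a peak after LPS only and 2 in both conditions. The 17 regions with an LPS peak only had between 0 and 12 tags each in untreated cells and between 10 and 99 after LPS, and together 58, 524 and 78 tags in untreated, LPS and input libraries. Since their peaks chose them, these values are a description. In all 19 regions the LPS density exceeded that of the input beyond counting error, and the untreated density did so in the 2 shared regions, or in 4 regions when scaled to tags outside peaks. The LPS peaks of the 19 regions and the untreated peaks of the 2 shared ones were called against this same input. A density above input was therefore built into their choice. The strongest of the regions with an LPS peak only, chr13:5785657-5786475, had 2 tags in untreated cells, 99 after LPS and 15 in the input, and lay 74669 bp from the start site. The region with most tags, chr13:5801143-5804226 at 58050 bp, had 159, 336 and 24, a ratio of 2.58 (2.13 to 3.13), with 3 peaks in untreated cells joined into 1 after LPS. By contrast, the other shared region, 16105 bp upstream, had 40 and 38 tags, a ratio of 1.16 (0.723 to 1.85). At 75336 and 71222 bp upstream 0 tags in untreated cells compared with 29 and 42 after LPS. With the 0 tags taken as 3, the observed ratios were at least 11.8 and 17.1. These do not include counting error, with which the lower limits were 8.98 and 13.3.

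The central 300 bases of the region with the most LPS tags among those with an LPS peak only, and of the region with most tags of all, are given 5′ to 3′ on the plus strand, with capitals for AP-1 letters (TGANTCA) and the NF-kB consensus on either strand.
74669 bp upstream (chr13:5785916-5786215): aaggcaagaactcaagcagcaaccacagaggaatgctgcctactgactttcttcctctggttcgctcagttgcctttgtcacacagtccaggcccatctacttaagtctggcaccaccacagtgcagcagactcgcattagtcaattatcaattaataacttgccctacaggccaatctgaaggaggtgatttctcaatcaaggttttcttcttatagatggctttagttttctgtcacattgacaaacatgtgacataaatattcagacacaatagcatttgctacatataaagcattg
58050 bp upstream (chr13:5802534-5802833): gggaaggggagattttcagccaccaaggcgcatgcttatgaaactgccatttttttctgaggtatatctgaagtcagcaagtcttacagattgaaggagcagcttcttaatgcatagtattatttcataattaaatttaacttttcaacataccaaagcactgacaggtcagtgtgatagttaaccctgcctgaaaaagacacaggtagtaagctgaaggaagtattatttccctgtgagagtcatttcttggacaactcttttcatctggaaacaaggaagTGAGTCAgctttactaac

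The second sequence held 1 AP-1 match, as did 10.2% of windows of this length at the centre of LPS peaks, and neither held the NF-kB consensus, present in 4.57%. They had a GC content of 42% and 39%, against 64.8% in the Klf6 promoter window.

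Along the 100 kb the difference was uneven. The stretches used here have unequal limits, and those between 30 and 85 kb hold most of the LPS peaks that chose the regions above. Their ratios are therefore a description too. Between 60 and 85 kb from the start site, 60 tags in untreated cells compared with 443 after LPS and 214 in the input, a ratio of 9.0 (6.86 to 12.0), and 9 of the LPS peaks fell here. Between 30 and 60 kb the tags were 200 and 539, with 177 in the input, a ratio of 3.28 (2.79 to 3.88). Between 10 and 30 kb they were 97 and 117, a ratio of 1.47 (1.11 to 1.94), with 178 in the input. Nearest to Klf6, between 1 and 10 kb, they were 29 and 67, a ratio of 2.82 (1.80 to 4.52), and farthest, between 85 and 100 kb, 21 and 77, a ratio of 4.47 (2.73 to 7.62).

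**Figure D5:**
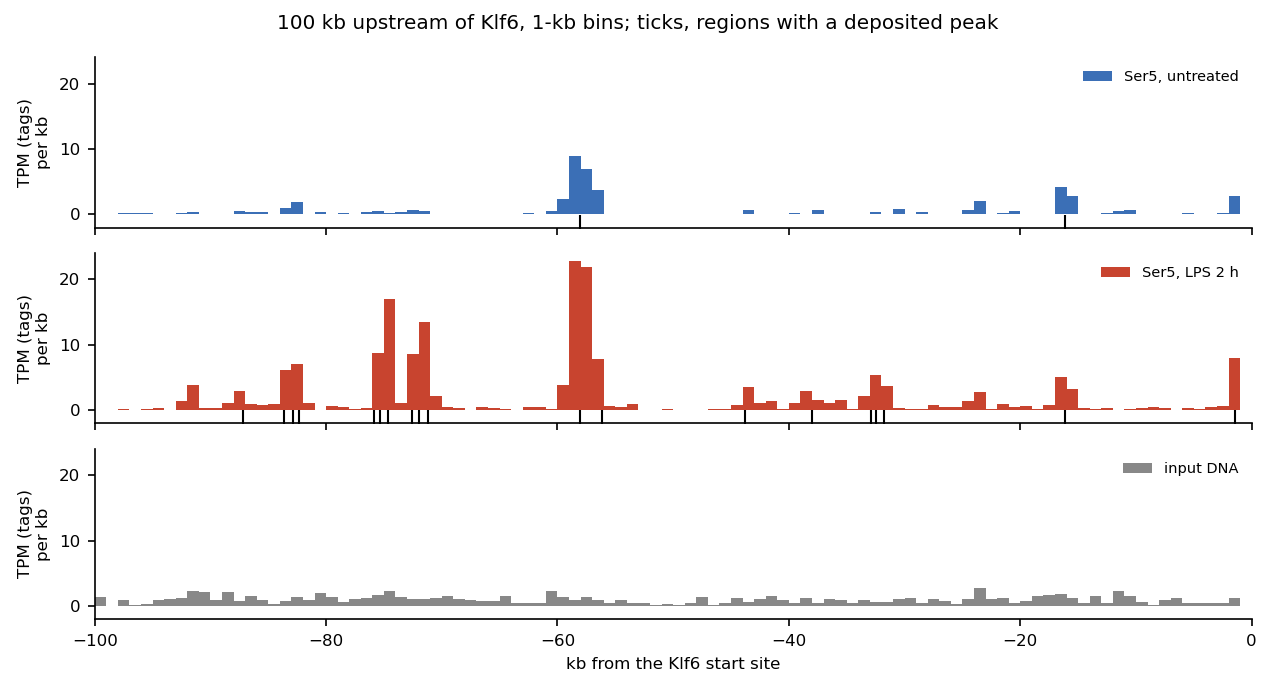
Density in 1-kb bins over 100 kb upstream of Klf6 without the first 1 kb, in TPM per kb, for untreated Ser5, LPS Ser5 and input; ticks under the bars mark regions holding a deposited peak of that library, 2 for untreated cells and 19 after LPS. The LPS bars between 60 and 85 kb have no counterpart of that height in untreated cells, whereas the group near 58 kb is present in both.

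Upstream of Klf10 the difference went the other way. Its 100 kb had 865 tags in untreated cells, 218 after LPS and 466 in the input, a ratio of 0.307 (0.264 to 0.357), where 6.02% of genes were at least 2 times lower. Between 1 and 100 kb upstream it had 561 tags in untreated cells, 163 after LPS and 451 in the input, a ratio of 0.354 (0.296 to 0.422), where the share of genes at least 2 times lower was 6.33%. The untreated promoter peak, chr15:38228517-38231852, runs past the first 1 kb, so this window still holds part of the promoter signal. Of its 561 untreated tags, 112 and 174 lay in the regions named next, and the ratio of the remainder was not computed. A peak 1680 bp upstream had 112 tags in untreated cells, 7 after LPS and 8 in the input, a ratio of 0.0762 (0.0299 to 0.162), and one at 84080 bp, over the non-coding gene Gm17721, had 174 and 38 tags, a ratio of 0.266. The peak at 1680 bp was deposited for untreated cells only. Peaks chose all single regions named here, so their values are a description. Klf9 had 324 and 124 tags in its upstream window, a ratio of 0.466 (0.376 to 0.575), of which 203 and 62 lay in a region over the non-coding transcript 2410080I02Rik. The window of Klf2, which also contains the coding genes Fam32a, Ap1m1 and Gm10282, had 1408 and 1099 tags, a ratio of 0.951. In it, a region 50384 bp upstream with no annotated gene had 131 untreated and 30 LPS tags, a ratio of 0.279 (0.181 to 0.418), while another at 23027 bp had 240 and 185, a ratio of 0.939 (0.771 to 1.14). For Klf3, Klf4, Klf7 and Klf13 the ratios of LPS to untreated ran from 0.916 to 1.25 with intervals that included 1. Their windows were below input in both conditions, and with scaling to tags outside peaks the intervals still lay below input in both conditions for Klf3 and Klf4 but included 1 for Klf7 in both and for Klf13 after LPS.

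The related genes are to be read against the shares over all coding genes, which were 5.58% higher and 14.1% lower at the promoter and 5.83% higher and 11.3% lower over the gene. Of the 9 other Klf genes, 5 had enough promoter tags, with 1 higher and 1 lower. Klf5 had 8 and 18 promoter tags, and Klf11 78 and 32, a ratio of 0.500 (0.321 to 0.764). Over the gene Klf15 was higher with 4 and 16 tags, below the 29 of the input, and Klf1 lower with 73 and 22. Among the 9 Sp genes, the closest relatives of the family, 6 promoters were tested, and Sp9, with 5 and 10 tags, and Sp8, with 11 and 3, passed the rule of size at levels near input. Over the gene 0 of 8 Sp genes did.

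Genes that act with or upstream of the factors were counted by the same rule and stand beside the same shares, 5.83% higher and 11.3% lower over the gene. Of 7 corepressor genes Hdac1, a histone deacetylase, was the single one past the rule, with 514 untreated and 1834 LPS tags over the gene, a ratio of 4.35 (3.94 to 4.80), and a promoter ratio of 1.61. Of the 6 genes of the MEF2 and ERK5 path, which drives Klf2 and Klf4 in other cells, 0 passed the rule in either place, with gene ratios from 0.519 to 0.994. Of 4 ubiquitin ligase genes, Wwp1, whose product targets Klf2, was lower over the gene with 820 and 294 tags, a ratio of 0.437 (0.381 to 0.500).

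In the TGF-beta path, to which Klf10 belongs, 2 of 8 promoters were lower, those of Tgfbr1 (332 and 127 tags) and Smad3 (149 and 46 tags), where 14.1% of all promoters were lower. Over the gene the receptor Tgfbr2 was lower, with 2494 and 606 tags, a ratio of 0.296 (0.271 to 0.324), and so was Smad3, with 590 and 239 tags, which was below input in both conditions by library totals and above it in untreated cells, at 1.67 times, when scaled to tags outside peaks. This is 2 of 8 genes lower, where 11.3% of all genes were. The inhibitor Skil was higher over the gene, with 403 and 996 tags, a ratio of 3.01 (2.68 to 3.39). The median promoter ratio of this list was 0.705 and its median gene ratio 0.673, below those of all genes.

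Among all coding genes, the one nearest to each member over 4 values (promoter and gene density in both Ser5 libraries, as log2 of TPM per kb plus 0.1) was Slfn2 for Klf6, Stat2 for Klf3, Wbp4 for Klf7, Rab35 for Klf13, Cox15 for Klf4, Lgals1 for Klf2, Slc43a2 for Klf10 and Aifm1 for Klf9. The match was closest for Klf13, with a Euclidean distance of 0.0885, and loosest for Klf6, with 0.595. Stat2 had promoter densities of 25.5 in untreated cells and 41.7 after LPS and gene densities of 4.51 and 9.88, beside 29.3, 47.3, 4.38 and 11.5 for Klf3. Slc43a2 went from 38.6 to 8.40 at the promoter, beside 36.7 and 6.80 for Klf10.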

How the data were processed

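Ser5 ChIP and input DNA of macrophages were analysed from aligned tags and peak lists. Reads were, per the study's methods, trimmed, aligned to mm9 with Bowtie and kept where they mapped to a single place, and the authors called peaks with MACS in each Ser5 library separately against the input; tool versions are not given in the sources used here. The deposited tag files list positions and strands of single tags, without normalization. The score of each peak in the deposited lists is -10*log10 of the MACS p-value by its range (lowest 50 in both lists), and only selected peaks here.

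Tags were counted by their 5′ ends in GENCODE M1 genes (mm9), from outermost annotated start to end, and scaled to the library total over chromosomes 1 to 19 and X (TPM, tags and not transcripts) and divided by length in kb. Positions could be off by 1 base, since the files do not state their counting. Duplicate tags were kept. With 1 library per condition no test was run. Genes were called at 2 times where the Ser5 libraries together gave at least 10 tags. Tags have exact Poisson intervals, ratios exact intervals conditional on the sum, shares exact binomial intervals. A count of 0 was taken as 3 tags for fold limits and as 0.5 tags for the rule of size. Peaks were assigned to a gene or window they overlapped by at least 1 bp.

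The named genes are the 8 members with all values; in the other lists those past the rule of size, at most 4 per list by Ser5 tags; and the gene most like each member. The members, lists and rules were chosen with earlier results of these data known. Python 3.11.15, numpy 2.4.6, pandas 2.3.3, scipy 1.17.1, numba 0.67.0 and matplotlib 3.10.9 were used, and counting and intervals were tested on simulated data. The alternatives were 1 tag for each position and strand, 5′ ends moved 75 bp downstream, scaling to tags outside peaks, division by the median ratio, other windows, start sites and transcripts, other size and tag limits, stricter peaks and, added after seeing the data, tags whose first 30 bases occur once in the assembly and the scaling to tags outside peaks for ratios to input away from promoters.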

Additional observations from a re-analysis of the deposited data

How the results depend on the processing

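Over 8 promoter and 7 gene alternatives, the lower Ser5 of Klf10 after LPS and the higher gene signal of Klf3 and Klf6 kept their call in every one, with Klf10 between 0.182 and 0.239 at the promoter and between 0.266 and 0.378 over the gene, Klf3 between 2.64 and 3.02 and Klf6 between 2.77 and 3.30. The Klf6 promoter, at 1.98, ranged from 1.82 to 2.39 and passed 2 when scaled to tags outside peaks, when divided by the median ratio and with 2 kb on each side, which makes 1 promoter higher in place of 0. With a rule of 1.5 times, 2 promoters were higher (Klf3 and Klf6) and 2 lower (Klf9 and Klf10), and 2 genes were lower (Klf2 and Klf10). Klf7 over the gene ranged from 1.87 to 2.82 and passed 2 in 5 of 7 alternatives, giving 3 genes higher. The direction of Klf4 and Klf7 at the promoter and of Klf4 over the gene depended on the setting, with ranges of 0.955 to 1.17, 0.886 to 1.14 and 0.577 to 1.18; the cause was not tested. Peaks up to 100 kb upstream of Klf6, the peak over its start site included, numbered 3 in untreated and 14 in LPS-treated cells with a score of at least 100. Within 50 kb they numbered 2 in untreated and 8 in LPS-treated cells. These counts are lower by construction of the stricter limits. The LPS to untreated ratio of tags in the 100 kb was 2.63 and between 2.64 and 2.83 in the alternatives. No direction that had passed the rule of size was turned. The Klf2 promoter stayed below 1, between 0.726 and 0.917. With 1 tag for each position and strand it was 0.881 (0.755 to 1.03), and divided by the median ratio 0.917 (0.817 to 1.03). Both of these intervals included 1. No paired analysis was possible because each condition has a single library. Scaling to tags outside peaks raised every ratio of Ser5 to input 1.90 times in untreated cells and 2.05 times after LPS, at the Klf6 promoter from 38.1 to 72.4 and from 75.5 to 155, and at the Klf9 promoter from 6.54 to 12.4 in untreated cells. Whether untreated Klf9 over the gene and in its upstream window, Klf4 beyond its first 1 kb after LPS and untreated Klf7 beyond its first 1 kb exceeded input depended on it. Its extension beyond promoters was chosen after seeing the data. Few tags limit Klf4 beyond its first 1 kb, with 38 and 18.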
